A study of Mus musculus with 2 samples.

Results

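Proteoglycans are proteins that carry long sulfated sugar chains, and the genes described here encode 17 of their core proteins and 38 of the enzymes that build, sulfate, trim or extend such chains. The 55 genes were chosen by symbol, and all 55 were found among the 38926 genes listed in both libraries. The sequenced RNA came from pleuroperitoneal folds (PPFs), paired embryonic folds that give rise to connective tissue of the diaphragm, in wild-type mouse embryos at embryonic day 12.5 on a mixed 129s/SvlmJ-C57/BL6J background. The only group holds 2 libraries, called replicates 1 and 2, each a pool of 2 dissected PPF pairs, with no other genotype, stage or tissue to compare with. The stated aim was to prioritise candidate genes from human work on congenital diaphragm defects. The libraries are described as biological replicates, but their litters are not stated, so the spread between them may in part be technical.

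Levels are the deposited TPM (counts divided by gene length, with every library brought to a common total), so that genes can be compared per length. Replicate 1 had 26370253 counts in total, replicate 2 had 23255957, and the 55 genes held 0.754% and 0.784% of them. All 10 fibroblast, 10 skeletal muscle and 8 mesothelial markers had at least 1 TPM in both libraries, with summed levels of 7839 and 7880 TPM, 2116 and 2156 TPM, and 837 and 874 TPM in replicates 1 and 2. The libraries differed in some markers of other organs. The 9 hepatoblast markers summed to 136 TPM in replicate 1 and 332 TPM in replicate 2, the 8 neuronal markers to 38.4 and 70.6 TPM, and the 8 urogenital ridge markers to 36.5 and 15.4 TPM. Markers of cartilage and sclerotome (9 genes) summed to 195.5 and 185 TPM, of endothelium (6) to 203 and 237 TPM, of leukocytes (6) to 352 and 311 TPM and of erythroid cells (6) to 4995 and 4642 TPM. Among the urogenital markers, Cdh16, a kidney cadherin gene, had 20 counts in replicate 1 and 0 in replicate 2.

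In background terms, chain assembly starts when a xylosyltransferase places xylose on a serine of the core protein. A linkage sugar sequence follows, and the chain is then committed either to heparan sulfate, by exostosins, or to chondroitin and dermatan sulfate, by a separate set of polymerases. Sulfotransferases and epimerases pattern the growing chain in the Golgi, the extracellular Sulf enzymes later remove sulfate from heparan sulfate, and hyaluronan is made at the plasma membrane without a core protein. The sulfated chains bind growth factors and guidance cues, Fgf, Wnt, Hedgehog and Slit proteins among them. Loss of GPC3 in humans causes Simpson-Golabi-Behmel syndrome, an overgrowth disorder in which diaphragmatic hernia can occur.

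Most of the 55 genes were expressed in the folds. At least 1 TPM in both libraries was reached by 49 of the 55 genes, against 63.4% of 21461 protein-coding genes, and at least 10 TPM by 41 of 55, against 46.3%. The 6 genes below 1 TPM in at least 1 library were Gpc5, Acan, Bcan, Ncan, Ndst4 and Hs3st2. The 49 expressed genes had a median of 51.1 TPM in replicate 1 and 49.4 TPM in replicate 2, against 26.5 and 27.0 TPM over the 13599 expressed protein-coding genes. The 55 genes were picked from the pathway with earlier results of these data known, so these shares and medians describe these genes only. No test was made of them. Of the 61 further pathway genes described below, 54 reached 1 TPM in both libraries and 33 reached 10 TPM. Because the tissue was sequenced in bulk, fewer cells of a type and less RNA per cell cannot be told apart.

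**Figure D1:**
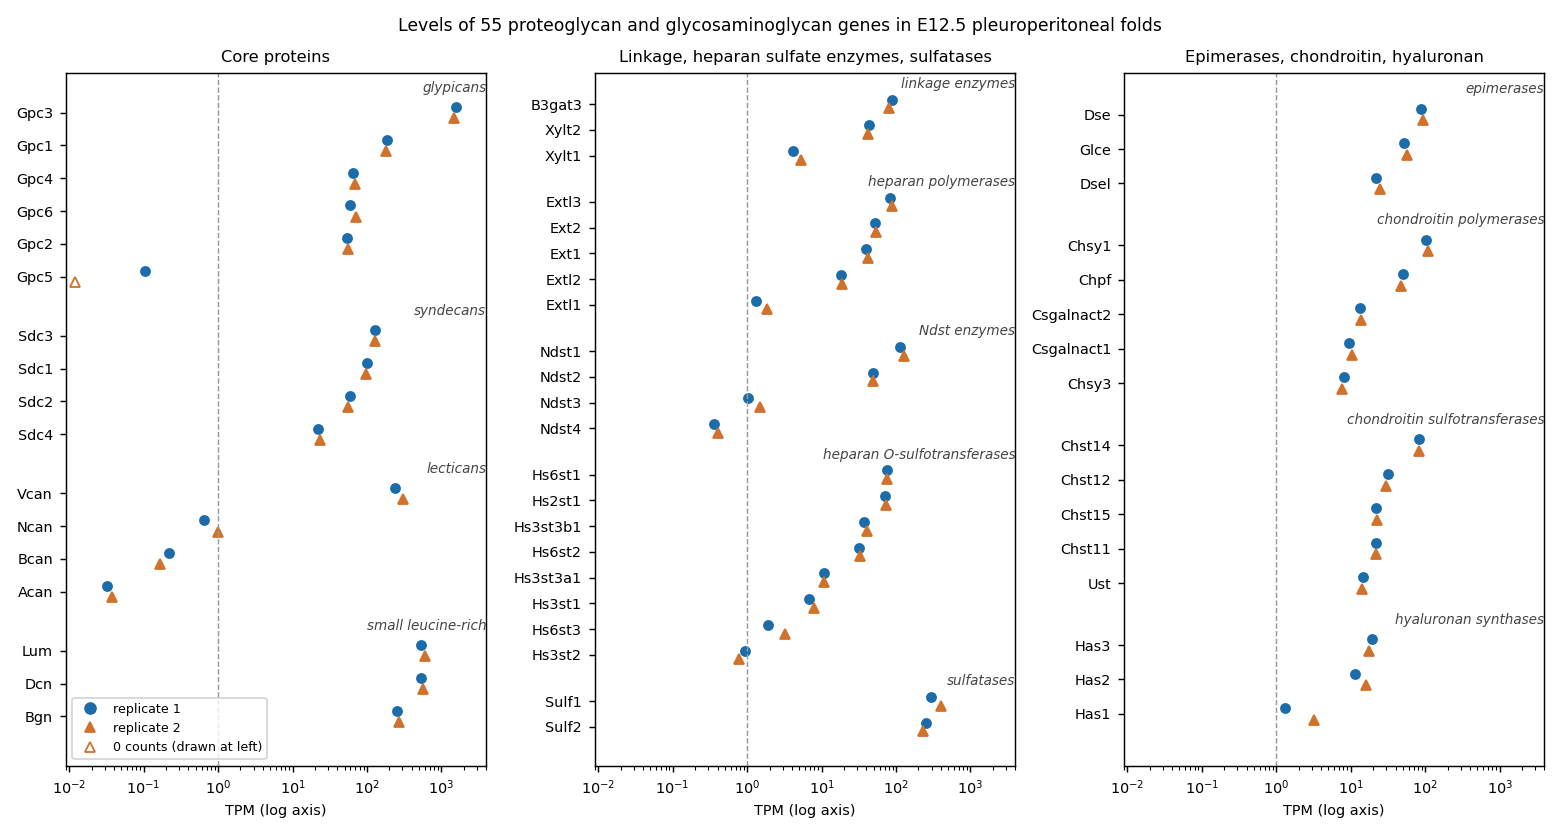
TPM of each of the 55 genes (log axis) in replicate 1 (circles) and replicate 2 (triangles), grouped by family, with a dashed line at 1 TPM and an open triangle at the left edge for 0 counts. Gpc3 stands highest at 1592 and 1460 TPM, and only Gpc5, Acan, Bcan, Ncan, Ndst4 and Hs3st2 have a point left of 1 TPM.

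Core proteins held most of the transcript level. The 17 core protein genes summed to 3830 TPM in replicate 1 and 3885 TPM in replicate 2, or 67.7% and 66.5% of the summed TPM of the 55 genes. The 38 enzyme genes together summed to 1825 and 1954 TPM, so core proteins exceeded enzymes 2.10-fold in replicate 1 and 1.99-fold in replicate 2. Among the enzymes, the 17 sulfotransferase genes summed to 574 and 595 TPM. The 2 sulfatase genes alone summed to 542 and 630 TPM, close to all sulfotransferases together and lower in replicate 1 but higher in replicate 2. The 10 polymerase genes followed at 380 and 391 TPM, then the 3 epimerases at 160.0 and 174 TPM, the 3 linkage enzymes at 136 and 127 TPM and the 3 hyaluronan synthases at 32.2 and 36.9 TPM.

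**Figure D2:**
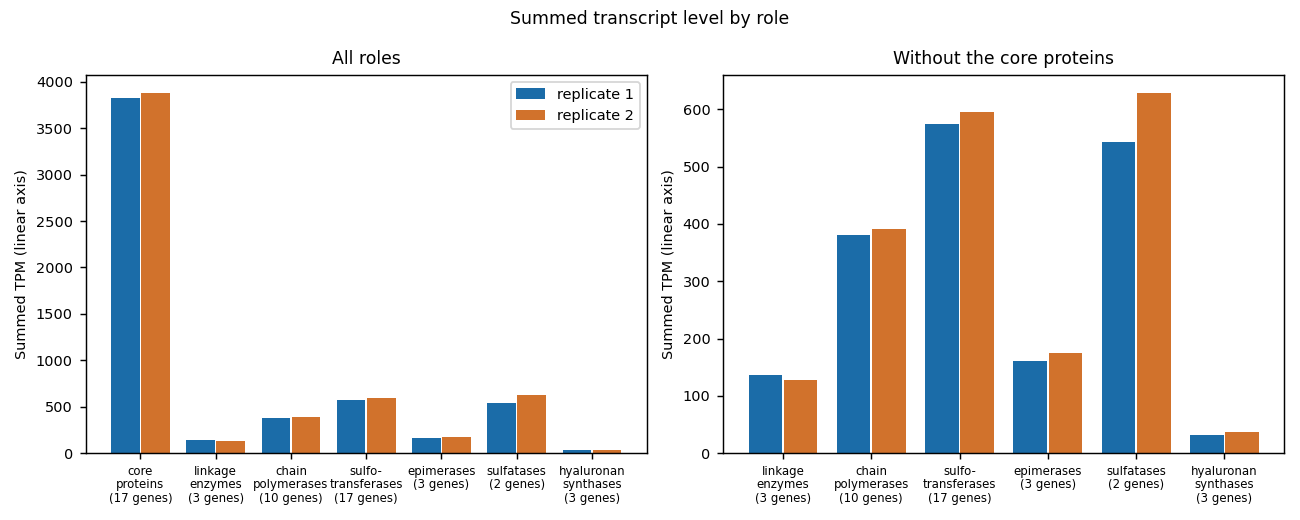
Summed TPM (linear axes from 0) of the genes of each role in replicate 1 (left bars) and replicate 2 (right bars), with all roles on the left and the core proteins removed on the right. Core proteins stand at 3830 and 3885 TPM, and the 2 sulfatases reach 542 and 630 TPM beside 574 and 595 TPM for the 17 sulfotransferases.

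Glypicans, which carry heparan sulfate and are tethered to the cell surface by a lipid anchor, were dominated by 1 gene. Gpc3 (chromosome X, 52272426 to 52613921 on GRCm38) had 36325 counts and 1592 TPM in replicate 1, against 28542 counts and 1460 TPM in replicate 2, a mean of 1526 ± 93.3 TPM (SD, n = 2). It ranked 30 among the 21461 protein-coding genes and held 26.5% of the mean summed TPM of the 55 genes. Gpc1 followed at 186 and 183 TPM, so Gpc3 exceeded it 8.55-fold in replicate 1 and 7.98-fold in replicate 2. The deposited Gpc1 length of 3595 bases compares with 5159 exon bases in GENCODE M21, whereas that of Gpc3 is the same in both. The same Gpc1 counts divided by the GENCODE bases give 130 and 127 TPM and a wider gap, but reads were not recounted over them. Gpc1 also shares 18.9% of its exon bases with Ankmy1 on the opposite strand. Gpc4, which lies beside Gpc3 on chromosome X (52053021 to 52165252), had 64.8 and 69.1 TPM. Gpc6 had 58.4 and 71.0 TPM, a range that overlaps that of Gpc4, so the order of these neighbours is open to the spread between the libraries. Their order also depends on the gene length used. Divided by 6425 GENCODE exon bases in place of the deposited 9428, the Gpc6 counts give 85.7 and 104 TPM, above Gpc4, but reads were not recounted. Gpc2 stood at 53.1 and 56.5 TPM. Gpc5 had 4 counts in replicate 1 (0.106 TPM, 95% Poisson interval 0.0288 to 0.271) and 0 in replicate 2, where a count of 0 allows up to 0.0927 TPM. Thus 5 of the 6 were expressed and Gpc5 was at the limit of detection.

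The counting model behind Gpc2 spans a neighbour. Its deposited length was 8309 bases, 1.94 times its 4274 exon bases in GENCODE M21, and the deposited position (chromosome 5, 138264952 to 138279958) is that of the annotated readthrough gene Gm43720, which also overlaps Gal3st4. Gal3st4 itself was listed with 156 and 137 counts, against 3747 and 3414 for Gpc2. Divided by the GENCODE exon bases, the Gpc2 counts give 103 and 110 TPM, above Gpc4. Those counts belong to the longer model, so these values may overstate Gpc2 and do not settle its order.

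Promoter windows from RefSeq (GRCm38.p6, 300 bases around a start that RefSeq annotates) were matched for 40 of the 55 genes. RefSeq and deposited starts are not always the same: the window covered the deposited start in 29 genes and missed it in 11, by 4 bases upstream for Gpc3, by 79 bases inside the gene for Gpc4 and by 110594 bases inside it for Hs3st1. For 6 genes RefSeq listed 2 windows, and the first listed was used. Those of Gpc3, Gpc4 and Gpc5 are shown because these 3 glypicans run from the highest level to the detection limit, with every CG dinucleotide in capitals. They lie at chrX:52613925-52614224 and chrX:52164874-52165173 on the minus strand and at chr14:115091965-115092264 on the plus strand.
Gpc3: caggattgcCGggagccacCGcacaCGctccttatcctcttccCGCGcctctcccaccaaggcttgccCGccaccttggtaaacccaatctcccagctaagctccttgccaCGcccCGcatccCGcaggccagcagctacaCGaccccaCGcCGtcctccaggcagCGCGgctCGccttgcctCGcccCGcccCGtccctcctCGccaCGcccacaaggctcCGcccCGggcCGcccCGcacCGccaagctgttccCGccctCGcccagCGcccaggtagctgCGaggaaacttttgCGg
Gpc4: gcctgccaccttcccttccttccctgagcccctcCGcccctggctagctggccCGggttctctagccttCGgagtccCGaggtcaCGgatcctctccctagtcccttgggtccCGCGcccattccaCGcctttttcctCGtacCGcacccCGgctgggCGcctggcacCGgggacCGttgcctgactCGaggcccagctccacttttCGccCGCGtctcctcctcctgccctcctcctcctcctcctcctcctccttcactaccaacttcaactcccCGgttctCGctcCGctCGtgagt
Gpc5: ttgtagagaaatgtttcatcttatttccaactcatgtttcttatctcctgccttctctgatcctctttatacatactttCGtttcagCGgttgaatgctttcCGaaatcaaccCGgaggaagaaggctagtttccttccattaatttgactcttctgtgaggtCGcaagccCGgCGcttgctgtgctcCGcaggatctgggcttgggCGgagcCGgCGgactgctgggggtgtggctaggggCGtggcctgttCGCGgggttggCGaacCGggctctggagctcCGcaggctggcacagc
The Gpc3 window held 30 CG dinucleotides, 0.92 times the number expected from its C and G content, that of Gpc4 22 (0.78 times) and that of Gpc5 17 (0.76 times). Observed over expected values of 0.6 or more, a common mark of CpG-rich promoters, were found in 70.8% of 10114 expressed protein-coding genes with a window and in 12.5% of 5445 that were not expressed. Among the members, 25 of 35 expressed genes reached 0.6, and 16 of the 25 whose window covers the deposited start. So did 4 of the 5 members below 1 TPM that have a window, Gpc5, Acan, Bcan and Hs3st2, while Ncan had 0.38. Among expressed members with low values were Ndst3 (0.07, in a window 18125 bases inside the deposited gene), Has1 (0.21), Bgn (0.32) and Vcan (0.44). CG-rich windows were thus found both at members below 1 TPM and at expressed ones, and the count is a description of these windows only.

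**Figure D3:**
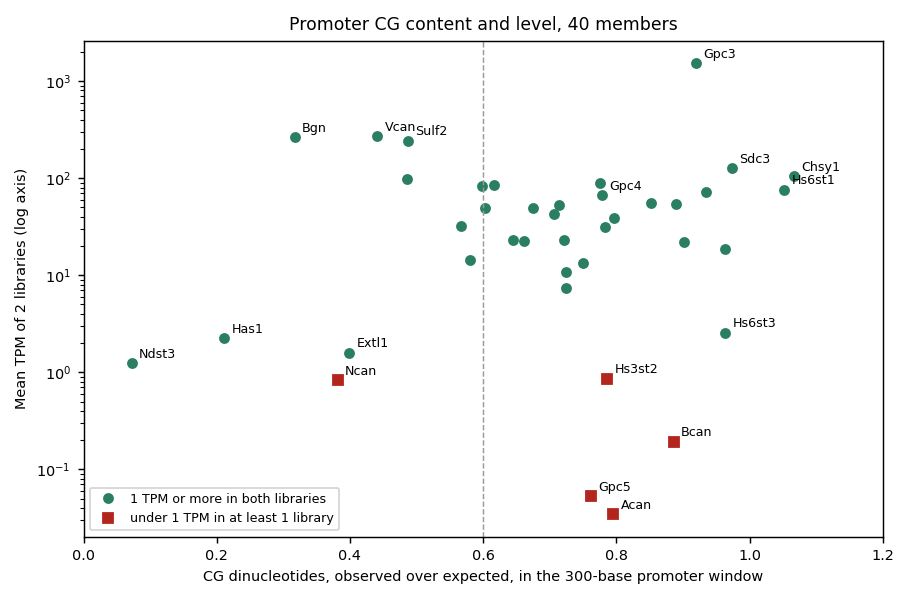
Mean TPM of the 2 libraries (log axis) against CG dinucleotides observed over expected in the promoter window for 40 members, with circles for genes at 1 TPM or more in both libraries, squares for the others and a dashed line at 0.6. The squares of Gpc5, Acan, Bcan and Hs3st2 lie right of the line, and Bgn, Vcan and Sulf2, all above 200 TPM, lie left of it, though the other window listed for Sulf2 has 0.92.

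Syndecans are transmembrane core proteins that carry heparan sulfate, and all 4 were expressed without any that dominated. Sdc3, best known from muscle progenitors and neurons, led with 127 TPM in both libraries. Sdc1, typical of epithelia, had 98.7 and 96.4 TPM in replicates 1 and 2. The mesenchymal Sdc2 followed at 60.0 and 55.4 TPM and Sdc4, a component of focal adhesions, at 22.1 and 23.7 TPM. The values of neighbours did not overlap between the libraries. As a family the syndecans summed to 308 and 302 TPM, against 1954 and 1839 TPM for the glypicans.

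Lecticans are large chondroitin sulfate proteoglycans that bind hyaluronan, and 1 of the 4 was expressed. Vcan, the lectican of loose mesenchyme (chromosome 13, 89655312 to 89742509), had 29169 counts in replicate 1 and 31579 in replicate 2, or 238 and 300 TPM. Ncan, a neural lectican, stood at 0.655 and 1.01 TPM. Bcan, also neural, had 0.216 and 0.168 TPM from 6 and 4 counts, and Acan, the main cartilage proteoglycan, 0.0320 and 0.0374 TPM from 2 counts in each library. Other cartilage and sclerotome markers were detected, led by Col11a1, a collagen gene, at 119 and 84.6 TPM and Sox9, a cartilage transcription factor gene, at 25.1 and 37.2 TPM, and 6 of the 9 reached 1 TPM in both libraries.

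Small leucine-rich proteoglycans, which decorate collagen fibrils, formed the highest family after the glypicans. Lum (chromosome 10, 97565501 to 97572703) had 534 and 610 TPM in replicates 1 and 2, and Dcn (chromosome 10, 97479500 to 97518162) 539 and 562 TPM. Their ranges overlap, so their order is not resolved. Bgn (chromosome X, 73483602 to 73492746) had 256 and 270 TPM. The deposited Dcn length of 2084 bases compares with 5838 exon bases in GENCODE. The same counts divided by that length give 192 and 201 TPM, below Bgn, but reads were not recounted over those exons. Summed over the family, 1329 and 1442 TPM were reached by 3 genes. Secreted core proteins (lecticans and leucine-rich) summed to 1568 and 1743 TPM, against 2262 and 2141 TPM for cell surface ones (glypicans and syndecans).

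Linkage enzymes were all expressed. B3gat3, the glucuronyltransferase that completes the linkage sugars, had 89.4 and 79.9 TPM. Xylt2 stood at 42.7 and 42.0 TPM and Xylt1, its xylosyltransferase paralog, at 4.10 and 5.22 TPM, so Xylt2 exceeded Xylt1 10.4-fold in replicate 1 and 8.04-fold in replicate 2. The deposited length of Xylt1 (3822 bases) is shorter than its 9651 GENCODE exon bases. The same counts divided by those bases give a lower Xylt1 value, but reads were not recounted over them.

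All 5 heparan sulfate polymerase genes were expressed. The exostosins Ext1 and Ext2 work as a complex, and Ext2 had 52.5 and 53.2 TPM while Ext1 had 39.9 and 42.2 TPM, a ratio of 1.32 in replicate 1 and 1.26 in replicate 2. Extl3, which adds the first N-acetylglucosamine, was higher than either at 84.0 and 87.3 TPM. Extl2, a related transferase, had 18.5 and 18.9 TPM. The last of the family, Extl1, had 1.33 and 1.84 TPM.

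The 5 chondroitin polymerase genes among the members were also all expressed. Chsy1, a chondroitin synthase, led at 102 and 108 TPM, followed by its partner Chpf at 51.1 and 47.9 TPM. Csgalnact2 and Csgalnact1, which start the chondroitin chain, had lower levels. For Csgalnact2 these were 13.2 and 13.7 TPM and for Csgalnact1 9.46 and 10.4 TPM. Chsy3 was lowest at 8.16 and 7.74 TPM, so that Chsy1 exceeded it 12.5-fold and 13.9-fold. The deposited Chsy3 length of 2931 bases compares with 7228 GENCODE exon bases. The same counts divided by those bases give 3.31 and 3.14 TPM and a wider gap, but reads were not recounted over them. Chsy1, Chsy3 and Chpf together summed to 161 and 163 TPM, 1.74 and 1.71 times the sum of Ext1 and Ext2. Chpf2, which is not a member, had 69.0 and 67.4 TPM and is left out of this sum, so the ratio would be higher with it.

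Of the Ndst genes, whose products remove acetyl groups from heparan sulfate and sulfate the freed nitrogen, Ndst1 and Ndst2 carried nearly the whole level. Ndst1 had 112 TPM in replicate 1 and 127 TPM in replicate 2, and Ndst2 48.9 and 49.4 TPM. Ndst3 stood near the threshold at 1.03 and 1.47 TPM (95% Poisson intervals 0.774 to 1.34 and 1.14 to 1.87). Below it was Ndst4 at 0.363 and 0.406 TPM. Ndst1 exceeded Ndst2 2.29-fold and 2.57-fold in replicates 1 and 2.

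O-sulfation genes were present for each position of the heparan chain. Hs2st1, the heparan sulfate 2-O-sulfotransferase, had 71.8 and 72.6 TPM. The 6-O-sulfotransferase Hs6st1 stood beside it at 76.2 and 75.5 TPM, and its paralog Hs6st2 had 31.3 and 33.0 TPM, whereas Hs6st3 had 1.92 and 3.21 TPM. The 4 member genes for 3-O-sulfation, a rare modification, were unequal. Hs3st3b1 led them at 37.4 and 41.2 TPM, above Hs6st2, while Hs3st3a1 had 10.9 and 10.8 TPM, Hs3st1 6.87 and 7.96 TPM, and Hs3st2 0.935 and 0.788 TPM. As a group these 4 3-O enzymes summed to 56.1 and 60.7 TPM, against 109 and 112 TPM for the 6-O enzymes. Further 3-O-sulfotransferase genes are not members and are left out of this sum.

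Hs3st3a1 and Hs3st3b1, neighbours on chromosome 11, cannot be fully separated by short reads. Their coding sequences in GENCODE (1179 and 1170 bases) were identical at 86.5% of 1130 aligned bases and held an unbroken identical run of 401 bases in exon 2 of 2. The first 150 bases of that run are shown because reads from them fit either gene, and they lie at chr11:64520310-64520459 on the plus strand in Hs3st3a1 and at chr11:63889484-63889633 on the minus strand in Hs3st3b1. No base is in capitals, since none differs.
Hs3st3a1 and Hs3st3b1: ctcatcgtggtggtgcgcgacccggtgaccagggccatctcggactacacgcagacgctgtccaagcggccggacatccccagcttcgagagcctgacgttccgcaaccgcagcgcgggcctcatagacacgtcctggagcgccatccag
Of the 50-base windows of Hs3st3b1, 8.56% also occurred in Hs3st3a1. Hs3st3a1 in addition shares 32.9% of its exon bases with F930015N05Rik on the opposite strand. The 3.43-fold and 3.83-fold higher level of Hs3st3b1 is therefore uncertain in size.

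Epimerases turn glucuronic into iduronic acid, which makes chains more flexible. Glce, which acts on heparan sulfate, had 51.3 and 57.5 TPM. Dse and Dsel act on chondroitin sulfate to give dermatan sulfate, the chain type found on decorin and biglycan. Dse had 87.1 and 92.3 TPM and Dsel 21.6 and 24.5 TPM in replicates 1 and 2. Chst14, the 4-O-sulfotransferase that works with Dse on dermatan sulfate, was the highest chondroitin or dermatan sulfotransferase at 83.8 and 83.1 TPM. It exceeded Chst12, a chondroitin 4-O-sulfotransferase, 2.60-fold and 2.77-fold, since Chst12 had 32.2 and 30.1 TPM. Chst11, likewise a 4-O enzyme, had 21.8 and 21.9 TPM and Chst15, which adds a second sulfate to such units, 22.2 and 22.9 TPM, a difference too small for their counts of 878 to 1022 to resolve. Ust, a uronyl 2-O-sulfotransferase, had 14.5 and 14.0 TPM. All 12 members that act on chondroitin and dermatan chains were expressed and summed to 467 and 476 TPM. The 18 heparan sulfate enzymes among the members, other than the sulfatases, summed to 647 and 684 TPM. Further enzymes of both chain types are not members, so neither sum covers a whole chain type.

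The extracellular endosulfatases Sulf1 and Sulf2 remove 6-O-sulfate from heparan sulfate outside the cell. Sulf1 (chromosome 1, 12692430 to 12860371) had 291 TPM in replicate 1 and 396 TPM in replicate 2 (343 ± 74.5, SD, n = 2). Sulf2 (chromosome 2, 166073089 to 166155663) had 252 and 233 TPM (243 ± 12.9). Together they exceeded the 3 6-O-sulfotransferase genes 4.96-fold in replicate 1 and 5.64-fold in replicate 2. The order of the pair depends on the gene length used. The deposited Sulf1 length of 4863 bases compares with 11294 GENCODE exon bases. The same counts divided by GENCODE lengths give 125 and 171 TPM for Sulf1, against 249 and 231 TPM for Sulf2. Reads were not recounted over those exons, so these values show the effect of the divisor and are not measured levels.

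Hyaluronan synthase genes were low. Has3 had 19.4 and 17.8 TPM, Has2, the main synthase of embryonic mesenchyme, 11.5 and 15.9 TPM, and Has1 1.3 and 3.23 TPM in replicates 1 and 2. Divided by its GENCODE exon bases (4518 against the deposited 2090), the same Has1 counts give 0.60 and 1.49 TPM, below 1 TPM in replicate 1. Reads were not recounted over those exons. Has3 exceeded Has2 1.69-fold in replicate 1 and 1.12-fold in replicate 2. The 3 genes summed to 0.569% and 0.631% of the members' TPM.

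The libraries were compared gene by gene to show how firm these levels are. Scaled counts gave a log2 ratio of replicate 1 over replicate 2 for each gene, with an exact 95% interval, and a gene was called where the ratio passed 1.5-fold and the interval lay on one side of 0. This compares 2 libraries and not conditions, and the interval holds counting error alone. Of the 53 members with at least 10 counts, 1 was called, against 3.78% of 19433 genes. That gene, Has1, was lower in replicate 1 (2.05% of all genes were called lower and 1.72% higher). Replicate 1 held 23 Has1 counts, against 49 in replicate 2, and the log2 ratio was -1.26 (interval -2.06 to -0.53). Hs6st3 and Ncan also passed 1.5-fold, with intervals that span 0. Acan and Gpc5 had too few counts to be compared. The median ratio of the 53 members was -0.02, against 0.01 over all genes tested.

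For some smaller differences the interval also lay on one side of 0. The interval lay below 0 for 9 members (12.8% of all genes tested) and above 0 for 7 (14.3%), in all 16 of 53 against 27.2%. Sulf1 was lower in replicate 1, with a log2 ratio of -0.41 (-0.44 to -0.37), as were Has2 at -0.43 (-0.62 to -0.24), Vcan at -0.30 (-0.32 to -0.28) and Gpc6 at -0.24 (-0.30 to -0.18). The others below 0 were Lum, Ndst1, Dsel, Glce and Has1. Gpc3 was higher in replicate 1 at 0.16 (0.14 to 0.19), as was Sulf2 at 0.15 (0.11 to 0.19), so the 2 sulfatases differed in opposite directions. B3gat3, Has3, Sdc2, Chpf and Gpc1 were also above 0, by 0.06 to 0.20. Across expressed members the median coefficient of variation was 4.59%, against 5.09% over expressed protein-coding genes.

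**Figure D4:**
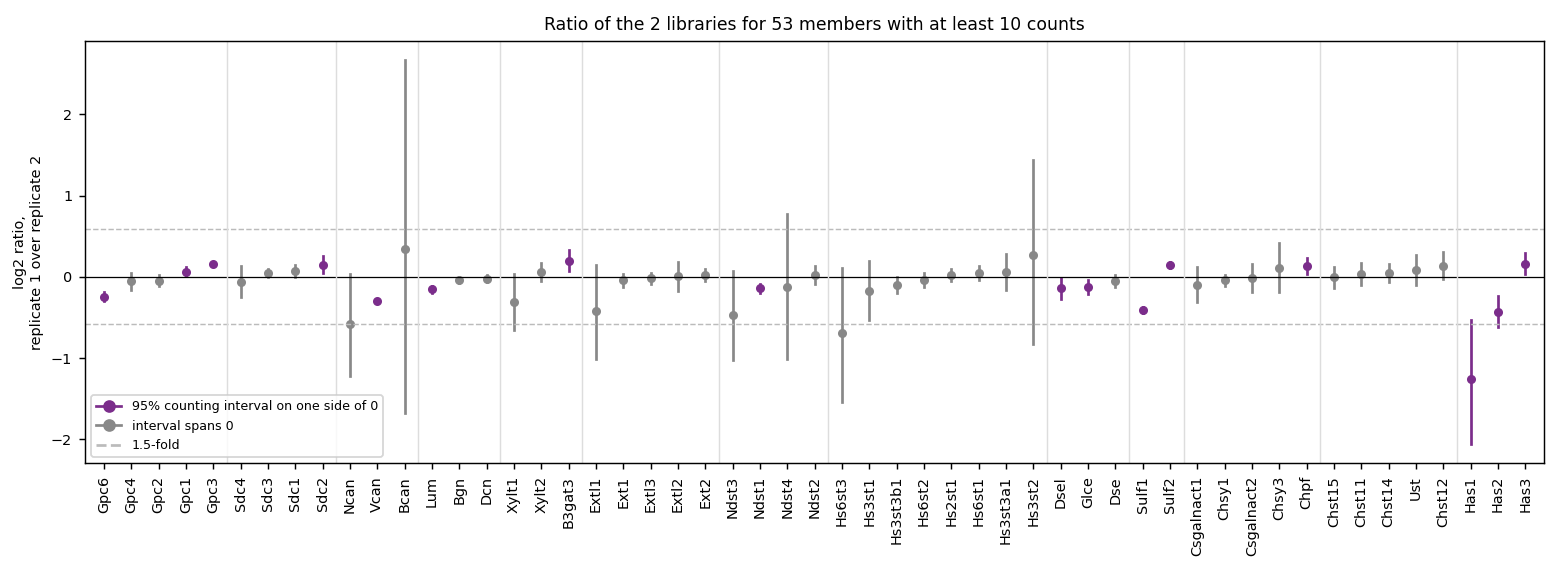
Log2 ratio of replicate 1 to replicate 2 (points) with its exact 95% counting interval (lines) for 53 members, grouped by family, with dashed lines at 1.5-fold and colour where the interval lies on one side of 0. Has1 alone passes 1.5-fold with an interval off 0, at -1.26, while Sulf1 and Sulf2 lie at -0.41 and 0.15.

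Other measured features moved with the library. Of the hepatoblast markers, 8 of 9 had an interval below 0, of the neuronal markers 7 of 8, of the cartilage and sclerotome markers with enough counts 5 of 8 and of the endothelial markers 3 of 6, while 7 of 7 urogenital ridge markers with enough counts lay above 0. The median ratio of the cartilage and sclerotome markers was -0.31, although Col11a1 was higher in replicate 1 at 0.53, and that of the endothelial markers -0.15. The 8 mesothelial markers had a median ratio of -0.0038, with 1 interval above 0 and 2 below. The 10 fibroblast markers had a median ratio of 0.01, with 5 intervals above 0 and 2 below. Over all expressed genes, those of 5000 bases or more had a median ratio of -0.05 and those under 2500 bases of 0.07, while the 17 expressed members of 5000 bases or more had -0.03 and the 8 under 2500 bases -0.09. The part of these features in the ratios of Has1, Has2, Sulf1 and Vcan was not tested.

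The rest of the pathway, 61 further genes listed from general knowledge, was described in the same way. Of these, 54 reached 1 TPM in both libraries and 33 reached 10 TPM. Basement membrane proteoglycans were at the level of the higher members, with Agrn, the agrin gene, at 193 and 207 TPM, Hspg2, the perlecan gene, at 148 and 161 TPM and Col18a1 at 127 and 133 TPM. Further leucine-rich genes included Ogn at 206 and 200 TPM and Fmod at 88.3 and 102 TPM. Omd, a gene of mineralised tissue, stood lowest of these at 0.757 and 0.530 TPM. All 8 precursor supply genes were expressed. Papss1, which makes the sulfate donor, had 149 and 142 TPM and Ugp2, which makes UDP-glucose, 130 and 134 TPM. All 10 chain degradation genes were expressed too, among them Arsb, a lysosomal sulfatase gene, at 72.7 and 72.0 TPM and Hpse, the heparanase gene, at 7.61 and 6.96 TPM. Hyal2, a hyaluronidase gene, had 134 and 132 TPM, above all 3 hyaluronan synthase genes. Hapln2, a link protein gene of brain, had 0 and 3 counts. Further chain enzymes were led by Chpf2 at 69.0 and 67.4 TPM and Fam20b, the xylose kinase gene, at 39.9 and 39.4 TPM, and Hs3st6 was lowest at 0.193 and 0.113 TPM. Chpf2 shares 44.1% of its exon bases with Smarcd3 on the opposite strand. Of the 57 with at least 10 counts, 1 was called between the libraries, against 3.78% of all genes. It was Hs3st5, a further 3-O-sulfotransferase gene, for which replicate 1 held 37 counts, against 12 in replicate 2, with a log2 ratio of 1.40 (interval 0.47 to 2.51).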

How the data were processed

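RNA was measured in 2 libraries of 1 group, wild-type PPFs at embryonic day 12.5. The submitters' processing notes list featureCounts, SAMtools 1.3 and STAR 2.4.0a with build mm9, and per the labels' protocols the libraries were polyA-selected and stranded. The strand setting of the counting is not stated. The authors deposited raw counts per gene symbol and TPM values. The deposited TPM equalled counts per base of the length column scaled to a fixed total, with a largest difference of 4.7e-11. Of 35719 symbols shared with GENCODE M21 (GRCm38), 99.7% overlapped the deposited position and 56.3% had the identical one, so positions are given as GRCm38. All 55 members overlapped.

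The members, further lists and role groups were chosen with earlier results of these data known. All members may be named; of each further pathway list the 3 highest, the lowest and any past 1.5-fold; of each marker list the 2 highest and any past 2-fold. Outside that rule, Gal3st4 and the genes that overlap a named gene were chosen after their values were seen, as were the pairs of levels compared. Ratios used edgeR 4.0.16 TMM factors, a pseudocount of 0.5, at least 10 counts over both libraries and Clopper-Pearson intervals (scipy 1.17.1). The intervals were tried on simulated Poisson counts, which hold only the error that the intervals assume. That trial checks the calculation and cannot show how the intervals cover other spread between libraries. With a single group no test between conditions was possible. A count of 0 allows 3 counts. Intervals cover counting error only, because they are computed from the counts alone. PCR copies cannot be told from separate molecules here, so the intervals may be too narrow even for counting error.

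Alternatives were other thresholds, units, scalings (total counts, DESeq2 1.42.0 size factors), filters, folds, pseudocounts, gene lengths and leaving out each library. The GENCODE length and the other promoter window were added after the data were seen. For the GENCODE length, deposited TPM was multiplied by deposited over GENCODE length, without a recount of reads or a new total. The lengths also differed for members without a remark above, among them Hs2st1 (4916 deposited against 8209 GENCODE bases), B3gat3 (1601 against 2588) and Ndst1 (6070 against 8279). Promoters came from RefSeq GRCm38.p6, and transcripts from GENCODE.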

Additional observations from a re-analysis of the deposited data

How the results depend on the processing

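The number of members at 1 TPM or more in both libraries was 49, and it lay between 45 and 51 under the other thresholds, units and scalings, including 47 with GENCODE exon bases as gene length, where Has1 and Ndst3 were lost. It was 49 to 50 when a library was left out. Of 42 neighbour pairs within families, 41 kept their order without replicate 1 and 41 without replicate 2, and 37 with GENCODE lengths, where Gpc6 passed Gpc4, Gpc2 passed Gpc6, Bgn passed Dcn, Sulf2 passed Sulf1 and Chst11 passed Chst15. Shares of the members' summed level changed with the unit. With summed CPM, core proteins held 62.8%, linkage enzymes 1.33%, polymerases 8.59%, sulfotransferases 10.7%, epimerases 3.14%, sulfatases 12.7% and hyaluronan synthases 0.747%, against 67.1%, 2.29%, 6.71%, 10.2%, 2.91%, 10.2% and 0.60% by TPM. With GENCODE lengths the same roles held 69.4%, 1.95%, 7.69%, 9.66%, 2.74%, 7.84% and 0.672%, because the divisor changed. In every setting with GENCODE lengths only the divisor changed and no reads were recounted. Without Gpc2 and Hs3st3a1, which share 20% or more of their exon bases, polymerases held 6.79% and sulfotransferases 10.1%. Leaving out a library gave 66.5% to 67.7% for core proteins and 9.59% to 10.8% for sulfatases. One member was called between the libraries under the main settings, total counts, DESeq2 size factors, no filter, 2-fold and a pseudocount of 1, and 0 with at least 100 counts, because Has1 had fewer. The log2 ratio of Has1 lay between -1.26 and -1.24 in the settings that kept it. Using the last RefSeq window of each gene, 26 in place of 25 expressed members were CG-rich, an alternative chosen after seeing the data. Counts limit Gpc5, Acan, Bcan, Ndst4 and Hs3st2, which had 24 counts or fewer in each library. No paired analysis was possible because the series has a single group.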
